A study of Mus musculus with 186 samples.

Results

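Of 186 single-cell wells of the adult mouse mammary gland, 38 held too few reads or genes to pass the count thresholds of the study, and this report describes those 38 wells beside the 148 that passed. A well was placed below the thresholds when, after removal of mitochondrial (mt-) and ribosomal protein (Rpl and Rps) genes, a basal cell had fewer than 50000 reads or 1000 detected genes, or a luminal cell fewer than 100000 reads or 1500 genes. By this rule 24 of 96 basal wells and 14 of 90 luminal wells were below. The wells were chosen by these measured values, the reads and genes of each well, which are therefore given as a description of the groups and support nothing.

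All cells came from adult, untreated FVB/NJ mice. They were freshly sorted as live (propidium iodide-negative) Lin- cells, lacking Ter119, CD31 and CD45, with basal cells gated as CD29hi CD24+ and luminal cells as CD29lo CD24+. Capture and full-length cDNA synthesis took place on chips of the Fluidigm C1, a microfluidic instrument with separate chambers for single cells, and its sites were inspected by microscope. The labels name a PCR plate but no mouse for a well: plate A held 60 basal wells, plate B 36 basal and 24 luminal wells, and plate C 66 luminal wells. Each sort was therefore treated as 1 sample without replicates. No test, p-value or SE was computed between below and passing wells, and the spread quoted is that between wells.

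Basal cells are the contractile cells at the outside of the mammary ducts and carry keratins 5 and 14 and smooth muscle proteins such as Acta2. Luminal cells line the duct and carry keratins 8 and 18 and hormone receptors such as Prlr, the prolactin receptor. Mitochondria transcribe their own small genome inside the organelle, while most respiratory chain subunits are encoded in the nucleus and translated from cytosolic messages. A few long RNAs, among them Malat1, Neat1 and the X-inactivation transcript Xist, stay in the nucleus.

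The below wells were unevenly spread over the plates. On plate A 10 of 60 basal wells were below, as were 14 of 36 basal wells on plate B. Of the luminal wells, 14 of 66 on plate C and 0 of 24 on plate B were. Of the 14 luminal wells, 13 carried the cell numbers 72 to 90, a run of 19 wells of which 6 passed, and the other was cell 57. All 38 missed the read threshold. In addition 2 basal and 11 luminal wells missed the gene threshold, and 0 wells missed the gene threshold alone.

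In total reads the below wells covered a wide range. Basal wells below had 2633 to 755580 reads (median 9848) and passing basal wells 294655 to 2161854 (median 1292932). Luminal wells below had 6750 to 715491 reads (median 44092) and passing luminal wells 321148 to 3722030 (median 1649217). In several deep wells most reads were mitochondrial and were removed before the thresholds applied. Basal cell 93 had 755580 reads, of which 97.9% were mitochondrial and 15778 remained after gene removal. Luminal cell 75 had 715491 reads, 96.4% of them mitochondrial, with 25205 remaining.

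Over 50% of the reads were mitochondrial in 9 of 24 basal wells below (2 of plate A, 7 of plate B) and 3 of 14 luminal wells below. Of the passing wells, 2 of 72 basal and 3 of 76 luminal wells were over 50%. With mitochondrial and ribosomal protein genes kept in the count, 9 of the 38 would have passed: basal cells 5, 38, 65, 67, 74, 75, 93 and 96, each over 50% mitochondrial, and luminal cell 85 at 19.8%. The remaining 29 stayed below either way.

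The groups did not meet at the thresholds in basal wells. The below well closest to the basal limit, cell 68, had 37461 retained reads and 1344 genes, and the passing well closest to it, cell 17, had 69933 reads and 3798 genes. In the luminal sort the closest below well, cell 85, had 84573 retained reads and 1617 genes. The closest passing well, cell 23, had 105636 reads and 3799 genes.

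**Figure D1:**
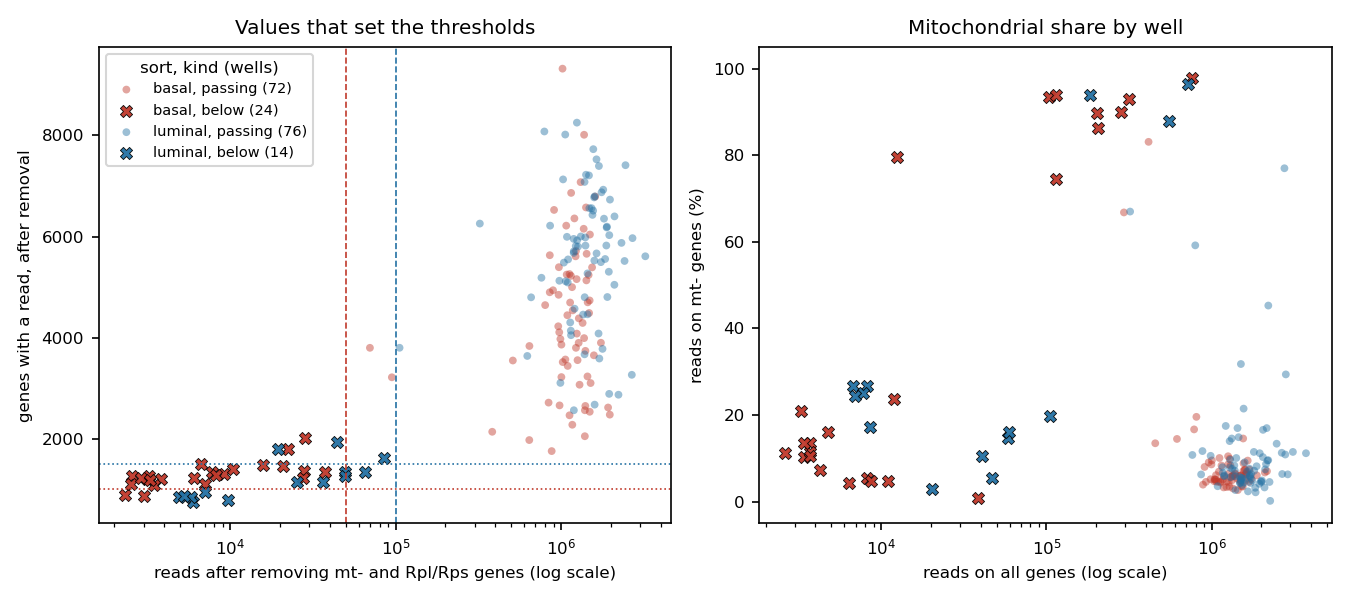
Each point is a well, circles passing and crosses below, with basal wells red and luminal wells blue. Left, reads (log scale) against genes with a read after gene removal, with dashed and dotted lines at the read and gene thresholds. Right, all reads (log scale) against the percentage of mitochondrial reads, where below wells lie in a shallow group and in a group of mostly deeper wells with shares up to 97.9%.

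Several below wells on a plate had nearly the same expressed genes, so they were compared with each other before any group values were taken. Each well was thinned at random to 2000 retained reads, the depth at which all 186 wells could be kept, and the correlation of log2 levels was taken over 6954 genes for each pair. Pairs of passing wells (10878) had a median r of 0.21 and a highest r of 0.35. Among the 227 pairs of below wells of the same sort and plate, 52 pairs (22.9%) lay above that highest passing pair, with values up to 0.86. For below wells of another sort or plate 1 of 476 pairs did, and for a below with a passing well 1 of 5624 pairs. These correlations are across genes, which are not independent, and pairs share wells and plates, so no p-value is given.

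Joined by such pairs, 30 of the 38 below wells fell into 7 sets of alike wells: 18 of 24 basal wells, namely all 10 from plate A and 8 of 14 from plate B, and 12 of 14 luminal wells. Of the 148 passing wells 1 was in a set. The first set held basal cells 4, 5, 18, 22, 33, 34 and 38 of plate A, with r from 0.34 to 0.70. The third held basal cells 60 (plate A), 74, 77, 83, 88, 89 and 91 (plate B), with r from 0.24 to 0.44. Cell 60 was joined only through cell 77, at an r of 0.35. In 4 other random thinnings 0, 0, 1 and 0 below pairs across sorts or plates lay above the highest passing pair. This link, and the counts that include cell 60, thus depended on the thinning. The sixth held luminal cells 76, 78, 79, 80, 82 and 87, with r from 0.29 to 0.57. The seventh held luminal cells 77, 83, 85, 88 and 90, with r from 0.69 to 0.86. Smaller sets were the basal pairs 49 with 52 and 78 with 87. The last joined luminal cell 57 of plate C to the passing luminal cell 23 of plate B at an r of 0.45.

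Without thinning, all 10 pairs of the seventh set (r from 0.84 to 0.96) and 6 of 21 pairs of the first set lay above the highest passing pair, which then had an r of 0.77. The other sets had 0 pairs above it. The 50 most read genes of a pair overlapped by a median of 14 genes in passing pairs and of 29 to 30.5 in the first, sixth and seventh sets. In passing pairs of the same sort and plate the median overlap was 18 genes, above the 15 of the third set, the 16 of basal cells 78 and 87 and the 15 of luminal cells 57 and 23. The third set's median unthinned r of 0.43 was also no higher than the 0.44 of those passing pairs. Chi-square per gene was 3.32 to 181 between the linked wells of these sets, where sampling noise alone gives about 1. Between passing wells of a sort it was 51 to 2036. Counts here were not thinned, and chi-square rises with reads for the same relative difference. Median retained reads were 6836 (basal) and 22370 (luminal) in wells below, and 1189246 and 1459556 in passing ones. The chi-square ranges therefore cannot show whether linked wells were more alike than passing wells. The wells of a set were kept as separate wells, and values with 1 well per set are given beside several of the medians. The well kept was the one with most reads, which need not be typical of its set: basal cells 38, 52, 74 and 78 and luminal cells 76 and 90. Luminal cell 57 was left out, since the deeper well of its pair passed. Basal cell 38 had an r of at most 0.43 in a set with a median of 0.55. Luminal cell 76 had at most 0.37, against 0.45. What the wells of a set share, such as common material, was not tested.

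**Figure D2:**
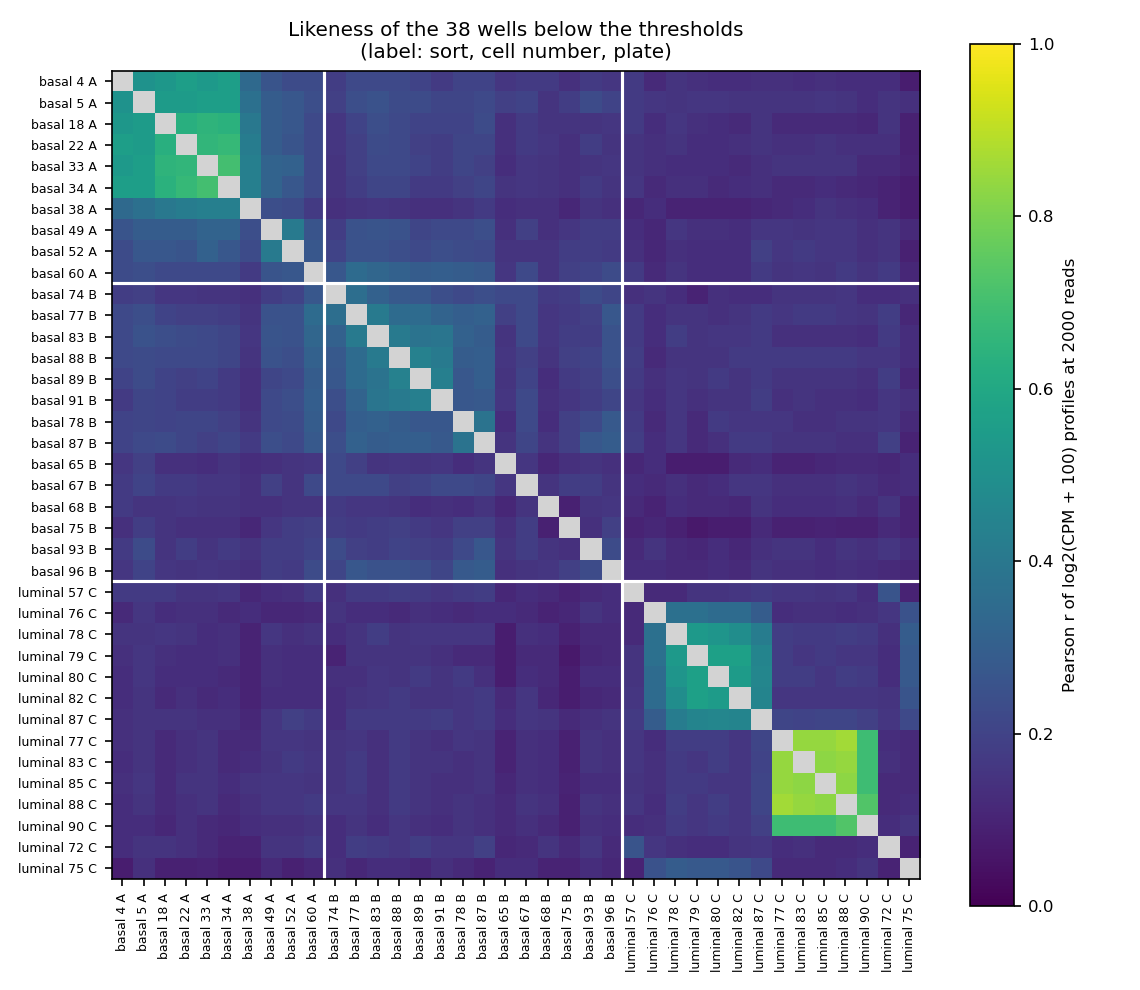
Pearson r of log2(CPM + 100) between each pair of the 38 below wells at 2000 retained reads, as colour from 0 to 1, with wells ordered by sort, plate and set and white lines between plates. The brightest blocks are luminal cells 77, 83, 85, 88 and 90, at r up to 0.86, and basal cells 4 to 38 of plate A, at r up to 0.70.

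Some genes were abundant in the wells of a set and scarce in passing wells. The genes named here were picked for being higher in a set than in passing wells, so that difference holds by construction. Other shared genes were abundant in passing wells too. Luminal cells 77, 83, 85 and 88 had Malat1, Actb and Prlr as their most read genes. In passing luminal wells these had medians of 24924, 15825 and 3894 CPM. In the sixth set Smg1, a kinase of nonsense-mediated decay, took 2.10% to 9.89% of retained reads against a median of 0.0199% in passing luminal wells. Cers5, a ceramide synthase, took 0.613% to 5.29% against 0.0000558%. In the seventh set Xist took 0.584% to 1.67% against 0.0628%, and Slc12a2, a sodium-potassium-chloride cotransporter, 0.538% to 1.96% against 0.0358%.

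The mitochondrial share was examined next, with every gene kept and wells thinned to 10000 reads. This depth kept 12 of the 24 basal wells below (4 of plate A, 8 of plate B), 9 of the 14 luminal wells below, and all 148 passing wells. The share in basal wells below was 0.87% to 97.8% with a median of 88.1%, and in passing basal wells 2.47% to 83.0% with a median of 5.81%. By plate the basal medians were 56.9% against 6.01% (A) and 88.1% against 4.94% (B). In luminal wells below it was 2.96% to 96.6% with a median of 15.9%, and in passing luminal wells 0.25% to 76.4% with a median of 7.33%. The ranges of below and passing wells overlapped in both sorts.

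The basal median depended on which below wells were kept. The rule places wells rich in mitochondrial reads below, and the depth of 10000 reads dropped the 12 shallowest basal wells below. When all 24 were kept, at 2500 reads per well, the basal median was 14.9% against 5.94%. When only wells that stayed below with all genes counted were used, the difference between basal medians at 10000 reads fell from 82.3 to 8.40 percentage points. In luminal wells 2500 reads gave 22.4% against 7.32% over all 14.

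All 13 mitochondrial messages were at least 2-fold higher in basal wells below than in passing ones at 10000 reads, with a median log2 ratio of 2.82, against 7.92% of the 2248 genes compared that were 2-fold or more higher. In luminal wells 12 of 13 were, with a median of 1.85, against 17.2% of 2358 genes. The mitochondrial share is bound up with the rule, so these counts describe the wells and nothing is read from them. mt-Nd1, a complex I subunit, held 85450 CPM in basal wells below and 13864 in passing ones (log2 ratio 2.62).

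The make-up of the mitochondrial reads was not used by the rule. At 250 mitochondrial reads per well, which kept the shares free of the total, mt-Nd1 (chrMT:2751-3707) took 0.4% to 9.2% of mitochondrial reads in the 14 luminal wells below, with a median of 2.2%. In the 76 passing luminal wells it took 7.6% to 29.2%, with a median of 12.8%. The ranges overlapped only between 7.6% and 9.2%. The 14 wells below were all on plate C, with 6 in the sixth and 5 in the seventh set of alike wells. They are thus not 14 separate profiles, and no value with 1 well per set was taken here. In basal wells the mt-Nd1 medians were 12.0% (0.8% to 27.2%) below and 15.4% (7.6% to 30.0%) passing, and the ranges largely overlapped. mt-Nd5, another complex I subunit, had a median of 0% in luminal wells below and 3.2% in passing ones, and 0.8% and 2.8% in basal wells. mt-Nd4, also of complex I, went the other way in luminal wells, at 4.6% and 3.2%. In basal wells mt-Nd4 was at 7.8% and 4% on plate A and at 2.4% and 3.6% on plate B. mt-Co1, a complex IV subunit, was at 20.4% and 17.6% in luminal wells and at 21.6% and 16.8% in basal wells. The ribosomal RNA mt-Rnr2 (chrMT:1094-2675) was at 15.2% and 20.4% in luminal wells and 9.0% and 11.6% in basal wells.

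Ribosomal protein messages were a smaller part of the non-mitochondrial reads in the median below well of each sort. At 10000 reads the median share was 0.593% (0% to 4.26%) in basal wells below and 2.32% (0.352% to 3.86%) in passing ones. It was 0.903% (0.318% to 14.2%) in luminal wells below and 2.23% (0.267% to 3.86%) in passing ones. The ranges overlapped in both sorts, and 1 luminal well, cell 76, lay far above every passing well at 14.2%. At full depth the basal medians below and passing were 0.6% and 2.59% (plate A) and 1.51% and 1.4% (plate B, over all 14 wells below), and basal cell 78 was at 13.2%. The 8 plate B wells kept at 10000 reads had a median of 0.616% against 1.42%, so the plate B direction depended on which wells were kept. With 1 well per set of alike wells, 4 luminal wells were left at this depth, cell 76 among them. The luminal difference then turned from -1.32 to 1.18 percentage points.

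Below wells held fewer different genes at the same depth. At 2000 retained reads basal wells below had 139 to 1081 genes (median 636) and passing basal wells 310 to 1251 (median 883). Luminal wells below had 207 to 586 genes (median 334) and passing luminal wells 221 to 1266 (median 1052). The gene count is one of the values that the rule uses. On plate B the basal medians were close, 622 below and 676 passing, and on plate A they were 636 and 959. With 1 well per set the medians were 372 over 10 basal and 280 over 4 luminal wells.

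The reads were also concentrated in few genes. The 50 most read genes held a median of 54.0% of retained reads in basal wells below and 28.2% in passing ones, with ranges of 29.1% to 95.5% and 19.9% to 56.2%. In luminal wells the medians were 76.5% and 24.0%, with ranges of 49.5% to 90.2% and 19.1% to 77.3%. The single most read gene took a median of 9.41% (2.96% to 46.3%) of the reads in basal wells below and 3.15% (1.77% to 7.68%) in passing ones. For luminal wells these were 9.62% (4.65% to 27.1%) and 2.79% (1.51% to 16.8%). Which gene this was differed between wells: 16 different genes led the 24 basal wells below, and 7 led the 72 passing ones. With 1 well per set the medians of the 50 most read genes were 78.4% over 10 basal and 79.3% over 4 luminal wells.

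Single genes led some wells by a wide margin. Septin2, a cytoskeletal GTPase, held 46.3% of retained reads in basal cell 68, and Drp2, a dystrophin-related protein, held 41.4% in basal cell 4. Ctsl, a lysosomal protease, held 35.3% in basal cell 75, and Tcp1, a chaperonin subunit, 33.2% in basal cell 93. Cd81, a tetraspanin, held 27.1% in luminal cell 90. Malat1 led 7 of 24 basal and 6 of 14 luminal wells below, and 12 of 72 and 48 of 76 passing ones.

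**Figure D3:**
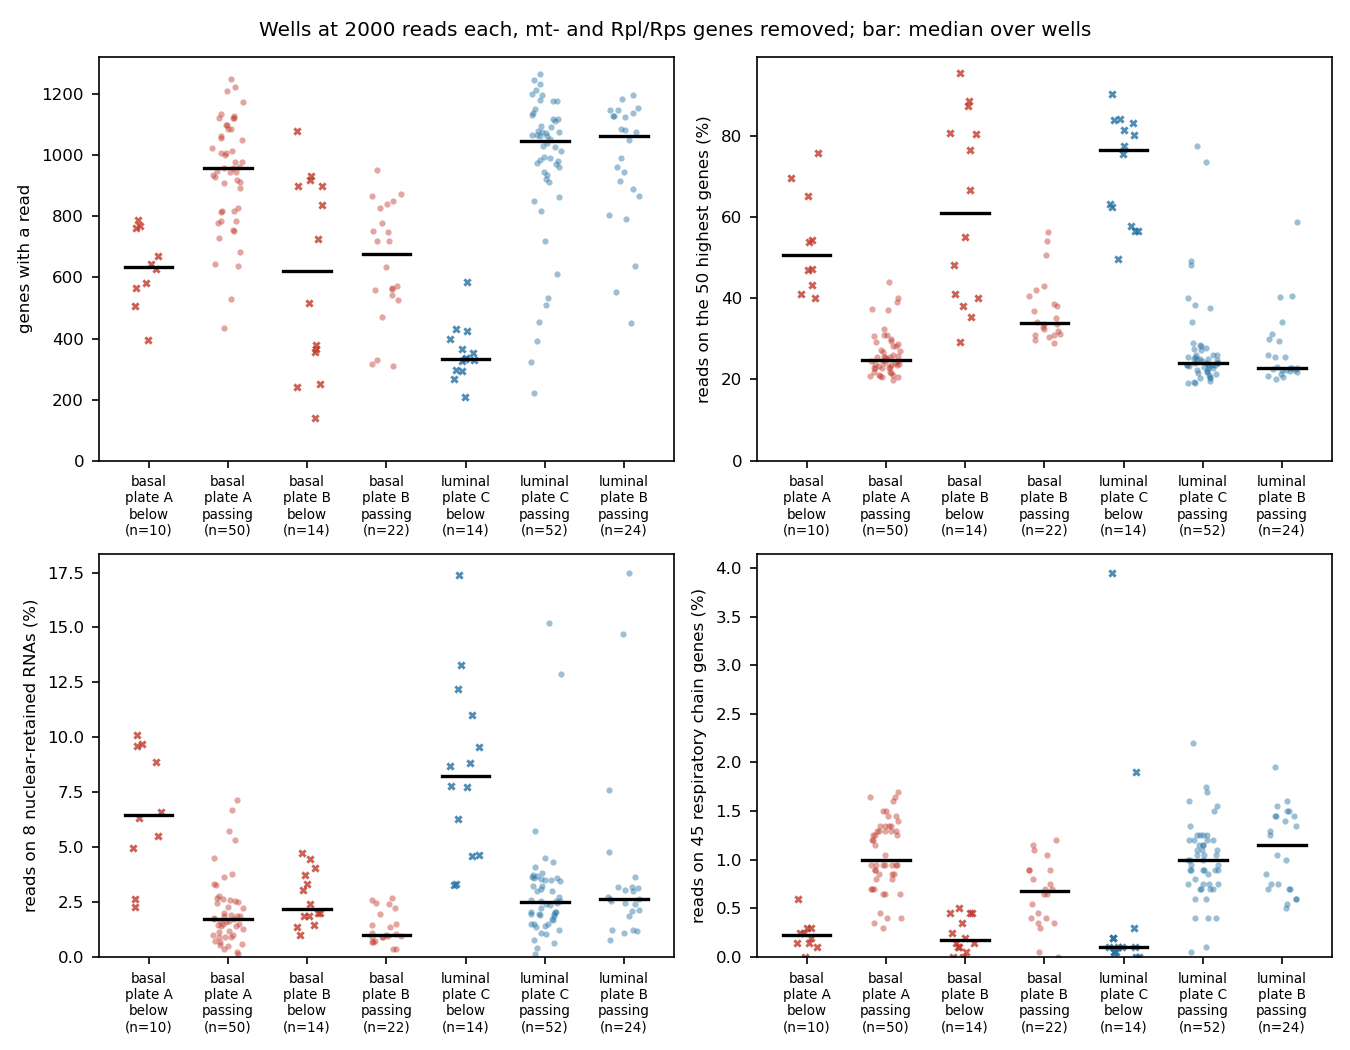
Genes with a read, percentage of reads on the 50 highest genes, on 8 nuclear-retained RNAs and on 45 respiratory chain genes (y axes) per well at 2000 retained reads, for each sort, plate and kind of well, with a bar at the median. Below wells (crosses) have fewer genes, more concentrated reads, more nuclear-retained RNA and fewer respiratory chain messages in their medians than passing wells (circles) of their plate.

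Nuclear-retained RNAs made up more of the reads in below wells, mainly through Malat1. The 8 RNAs of this list together took 2.30% to 10.1% of retained reads (median 6.47%) in the 10 basal wells below on plate A, against a passing median of 1.75%. All 10 lay above that passing median, and 4 lay above every passing well of the plate. On plate B 13 of 14 basal wells below lay above the passing median (2.20% against 1.02%), and 6 above every passing well. On plate C all 14 luminal wells below lay above the passing median (8.25% against 2.50%), and 1 above every passing well. With 1 well per set the medians were 2.33% in basal and 3.97% in luminal wells, against 1.5% and 2.55% in passing ones. Malat1 alone was at 60650 and 24964 CPM in basal wells below (plates A and B) and 79321 in luminal ones (plate C). In passing wells it was at 19590, 10886 and 27212. Miat had 0 reads at this depth in below wells, and Meg3 had a read in 1 basal well below.

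Malat1 (chr19:5795690-5802672) was read in every well. Its level, in CPM (counts scaled to the total of retained reads) at full depth, was 10476 to 95395 (median 32464) in basal wells below and 1697 to 67220 (median 13123) in passing ones. In luminal wells it was 24985 to 175196 (median 74565) and 1690 to 167817 (median 24924). The ranges overlapped in both sorts. By plate the medians below and passing were 57967 and 16025 (plate A), 20516 and 9103 (plate B), and 74565 and 25098 (plate C).

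Xist (chrX:103460373-103483233) had a read at 2000 retained reads in 16 of 24 basal wells below (66.7%, 95% Clopper-Pearson interval 44.7% to 84.4%) and 27 of 72 passing ones (37.5%, 26.4% to 49.7%). In luminal wells it was read in 12 of 14 (85.7%, 57.2% to 98.2%) and 47 of 76 (61.8%, 50.0% to 72.8%). Its level, from the summed thinned reads of a group, was 2396 and 514 CPM in basal wells and 4714 and 1059 in luminal wells, log2 ratios of 2.20 and 2.14. The basal levels differed by plate, at 5350 and 500 CPM for plate A and at 286 and 545 for plate B. Only the summed level was lower below on plate B. There the full-depth medians of Xist were 102 CPM below and 1.85 passing, with a read in 7 of 14 and 7 of 22 wells. Single passing wells of plate B reached up to 4907 CPM. Of the 115 basal reads below, 66 (57.4%) were in cells 49 and 52, and of the 132 luminal ones 102 (77.3%) were in the seventh set. These intervals, like all others given, cover counting error only, since amplified reads without molecular identifiers are not independent molecules. Those for shares also take the wells as separate, though 18 of 24 basal and 12 of 14 luminal wells below were in sets of alike wells. Neat1 was read in 6 of 14 luminal wells below and 4 of 76 passing ones, with 12 of its 13 reads below in the seventh set. The direction was not shared by the whole list. In basal wells 2 of 4 genes compared were 2-fold higher and 1 lower, beside 18.7% and 49.3% of all genes. In luminal wells 4 of 6 were higher and 2 lower, beside 15.9% and 65.3%. Tug1 was lower in the summed reads of basal (229 against 688 CPM) and luminal wells below (71.4 against 664). In basal wells it was read in similar shares, 37.5% below and 38.9% passing. On plate B its full-depth medians were close, at 255 CPM below and 250 passing. Kcnq1ot1 was lower in luminal wells below (71.4 against 441).

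Messages for the nuclear-encoded respiratory chain were scarcer in below wells. The 45 genes of this list together took a median of 0.225% of retained reads in basal wells below on plate A and 1.00% in passing wells. On plate B the medians were 0.175% and 0.675%, and on plate C 0.100% and 1.00%. All 24 basal wells below lay under the passing median of their plate, and 7 of the 10 on plate A lay under every passing well. In the luminal sort 12 of 14 lay under it, and cells 57 (3.95%) and 75 (1.90%) lay above it. With 1 well per set the medians were 0.1% in basal and 0.175% in luminal wells, against 0.925% and 1% in passing ones.

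Gene by gene, on the same scale, 26 of the 31 respiratory chain genes compared were at least 2-fold lower in basal wells below and 0 were 2-fold higher, with a median log2 ratio of -1.89. Of all 3049 genes compared 49.3% were 2-fold lower and 18.7% higher, with a median of -0.97. In luminal wells 29 of 33 were 2-fold lower and 2 higher, with a median of -3.82, against 65.3% lower and 15.9% higher among 2724 genes and a median of -1.93. With the genes at 0 reads in below wells set to their bounds, the luminal list median was -1.22 and that of all genes -0.73. Log2 ratios here are on the scale of CPM plus 10.

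Cox4i1, a complex IV subunit, was read in 6 of 24 basal wells below at 146 CPM and in 44 of 72 passing wells at 778. In luminal wells it was read in 6 of 14 at 214 and in 64 of 76 at 1059. Atp5b, the beta subunit of ATP synthase, had 125 and 701 CPM in basal wells and 143 and 868 in luminal wells. The 2 luminal exceptions each rested on 1 well. Atp5j2, an ATP synthase subunit, had 2750 CPM below and 132 passing, with 76 of its 77 reads in cell 57. Ndufa11, a complex I subunit, had 1393 and 158, with 38 of its 39 reads in cell 75. Without that well the log2 ratios were -1.55 and -1.79.

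At 10000 reads with all genes kept, 28 of 28 respiratory chain genes were 2-fold lower in basal wells below (median -3.66), beside 83.5% of all genes and an all-gene median of -3.0. In luminal wells 28 of 31 were (median -3.71), beside 69.3% and -2.71. On this scale the mitochondrial reads count towards the total of each well. Set against all genes, the list median of basal wells was -0.66 over both plates and 0.16 on plate B alone. In luminal wells it was -0.31 without cell 57 and -0.09 with 1 well per set of alike wells.

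Abundant cytosolic messages outside the removed genes were mostly lower in below wells too, in luminal wells at about the share of all genes. Of 27 genes of the list compared in basal wells, 19 were 2-fold lower and 3 higher, with a median log2 ratio of -1.46, beside 49.3% and 18.7% of all genes. Eef1a1, a translation elongation factor, was read in 12 of 24 basal wells below and 71 of 72 passing ones, at 771 and 4264 CPM. Ubb, a polyubiquitin gene, was at 438 and 2146. Pkm, a glycolytic enzyme, was among the 3 higher, with 33 of its 37 reads in basal cell 78. In luminal wells 18 of 26 were lower and 1 higher, beside 65.3% and 15.9% of all genes, with a median of -1.74 that was close to that of all genes. The glycolytic enzyme Tpi1 was the higher one, read in 7 of 14 wells below and 17 of 76 passing ones, with 37 of its 39 reads below in the seventh set.

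Stress-related lists were less uniform. Of the immediate early genes 9 of 18 in basal and 9 of 17 in luminal wells were 2-fold lower, and 3 in each sort were higher, beside all-gene shares of 49.3% and 65.3% lower and 18.7% and 15.9% higher. In luminal wells Atf3 was at 214 and 1592 CPM and Egr1 at 214 and 1197, while Junb was at 1750 and 158, read in 6 of 14 and 16 of 76 wells. Of the 49 Junb reads below, 48 were in the seventh set. Of heat shock genes 3 of 10 in basal and 5 of 6 in luminal wells were lower. The chaperone Hsp90aa1 was the luminal exception, with 174 of its 175 reads in cell 75. Of the p53 and apoptosis genes 2 of 3 were higher in basal wells below: Trp53inp1 was read in 7 of 24 and 2 of 72 wells, and Mdm2 in 12 of 24 and 19 of 72. Only these 3 genes of the 20 listed were compared, and 34 of the 42 Mdm2 reads below were in the first set. In luminal wells 3 of 4 were lower, and so were 3 of 3 integrated stress response genes.

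**Figure D4:**
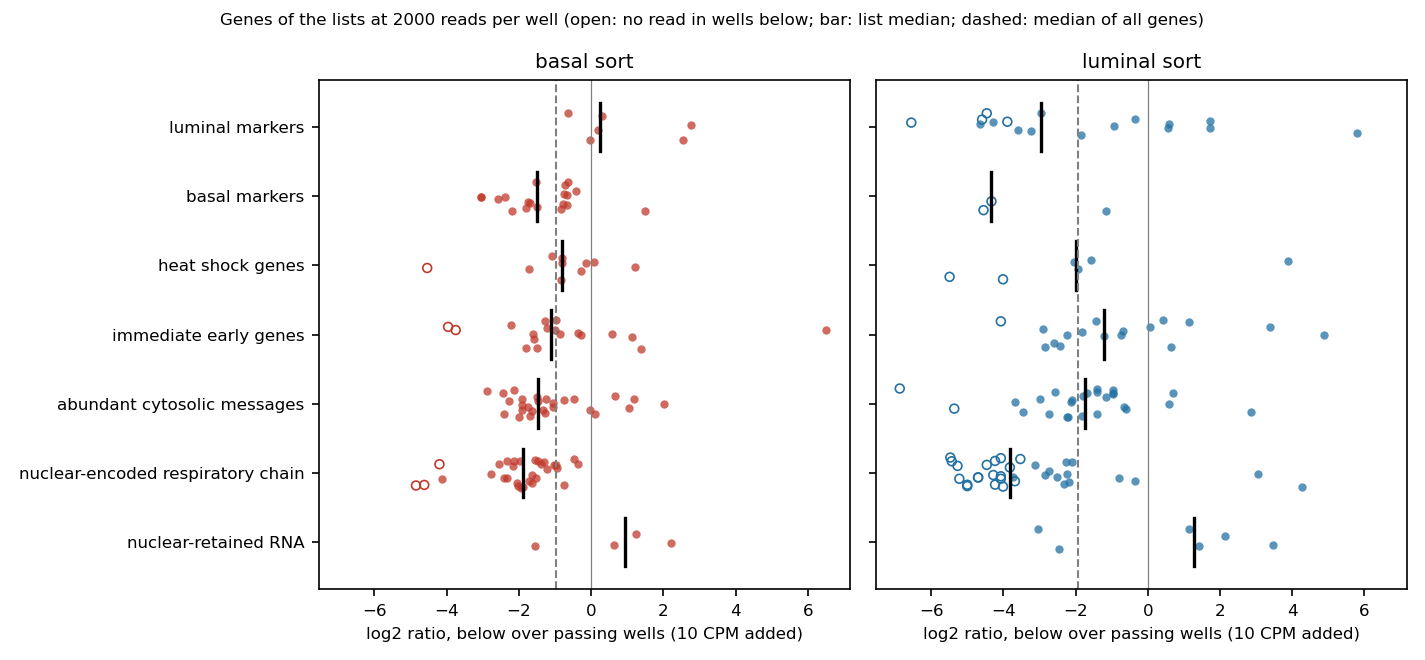
Log2 ratio of below over passing wells (x axis, 10 CPM added, at 2000 retained reads) for each gene of 7 lists (y axis), with basal and luminal sorts in separate panels, open circles for genes without a read in below wells, a bar at each list median and a dashed line at the median of all genes. The respiratory chain medians (-1.89 basal, -3.82 luminal) lie left of the dashed lines (-0.97 and -1.93), and the nuclear-retained RNA medians (0.93 and 1.28) lie right of them.

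The labels of the sorts were then checked against lineage genes in the below wells. The study took lists of 200 basal and 200 luminal genes from earlier bulk RNA-seq, and the own-lineage part of a well sets the share read of its sort's list against both shares together. At 2000 retained reads the median was 93.9% in basal wells below on plate A and 95.0% in passing ones, and on plate C 92.9% and 97.1% in luminal wells. On plate B it was 61.9% in basal wells below and 94.8% in passing ones. Over all basal wells below the range was 32.4% to 100%, and in passing basal wells 0% to 100%. With 1 well per set the medians were 70.3% in basal and 89.6% in luminal wells below. At 10000 reads the basal difference in medians was -9.23 percentage points, and 4.76 on plate A alone.

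The own-lineage part ranged from 32.4% in cell 91 to 91.7% in cell 65 among the 14 basal wells below on plate B. These wells had a read for a median of 9 genes of the luminal list (1 to 25), against 1 (0 to 17) in the 22 passing basal wells of that plate, and for 16.5 genes of the basal list against 23.5. On plate A the luminal-list median was 1.5 in both kinds of well. The 7 shallowest plate B wells stood out: cells 77, 78, 83, 87, 88, 89 and 91 had a read for 11 to 25 luminal-list genes and an own-lineage part of 32.4% to 64.5%. Their total reads were 3291 to 12527. All 7 were in sets of alike wells, and plate B also held 24 luminal wells. The part that the shared plate and the alike profiles have in this was not tested.

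Krt18 (chr15:102028216-102032026), a luminal keratin, was read at 2000 retained reads in 11 of 14 basal wells below on plate B (78.6%, 49.2% to 95.3%) and in 1 of 22 passing ones. That interval takes the 14 wells as separate, though 8 of them were in sets of alike wells. On plate A Krt18 was read in 0 of 10, all of them in sets of alike wells at the thinning used, and in 5 of 50 passing ones. Taken as 10 separate wells, a count of 0 allows a share of up to 30.8% (Clopper-Pearson). In luminal wells of plate C it was read in 11 of 14 below and 51 of 52 passing. Prlr (chr15:10177238-10349190) followed the same pattern in basal wells, with 9 of 14 and 1 of 22 wells of plate B and 0 of 10 and 1 of 50 wells of plate A. Summed over both plates, Krt18 was at 917 CPM in basal wells below and 125 in passing ones, and Prlr at 292 and 41.7. Krt8 (chr15:101996711-102004342), the partner keratin of Krt18, did not share it: it was read in 3 of 14 basal wells below and 5 of 22 passing ones on plate B.

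Acta2 and Tagln, contractile genes of the basal layer, were lower in basal wells below on both plates. Myh11 was lower on plate A only, with log2 ratios of -1.47 and 0.43, and 22 of its 42 reads below were in cell 75 of plate B. Acta2, smooth muscle actin, was read in 15 of 24 wells below and 64 of 72 passing ones, at 604 and 5028 CPM. Its log2 ratio was -2.45 for plate A and -3.48 for plate B. Tagln, transgelin, was at 479 and 4021, with ratios of -2.80 and -2.89. Of the 19 basal markers compared 10 were 2-fold lower and 1, Id4, was higher, with a median of -1.49 beside 49.3% lower and 18.7% higher among all genes and their median of -0.97. Of the study's basal list 50 of 78 genes compared were lower and 12 higher, and of its luminal list 2 of 19 were lower and 8 higher. Krt14 was read in 9 of 10 (plate A) and 10 of 14 (plate B) wells below, and in 42 of 50 and 12 of 22 passing ones. Krt5 was read in 0 of 10 and 4 of 14, against 15 of 50 and 5 of 22.

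In luminal wells below, lineage genes differed from each other in direction. Krt8 was read in 2 of 14 wells below and 66 of 76 passing ones, at 71.4 and 1572 CPM (2 and 239 reads, 22-fold, counting interval 6.03 to 183). Krt19, another luminal keratin, was also read in 2 of 14 and in 68 of 76, at 71.4 and 2039. Prlr went the other way, read in 14 of 14 and 63 of 76 wells at 14964 and 4493. Stc2, a secreted glycoprotein, was read in 6 of 14 and 7 of 76, at 3857 and 59.2, and all 108 of its reads below were in the sixth set. Of 17 luminal markers compared 10 were 2-fold lower and 3 higher, with a median of -2.95, or -0.97 with the genes at 0 reads at their bounds, against -1.93 and -0.73 for all genes. Of the study's luminal list 56 of 76 genes were lower and 8 higher, and of its basal list 4 of 6 were lower and 1 higher, beside 65.3% lower and 15.9% higher among all genes. Epcam, an epithelial adhesion molecule, was read in 6 of 14 wells below and 42 of 52 passing ones on plate C. The caseins and other milk genes were lower in 9 of 10, among them Csn3 at 143 and 2355, while Trf, transferrin, was at 12464 and 3711, with 339 of its 349 reads below in the sixth set.

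**Figure D5:**
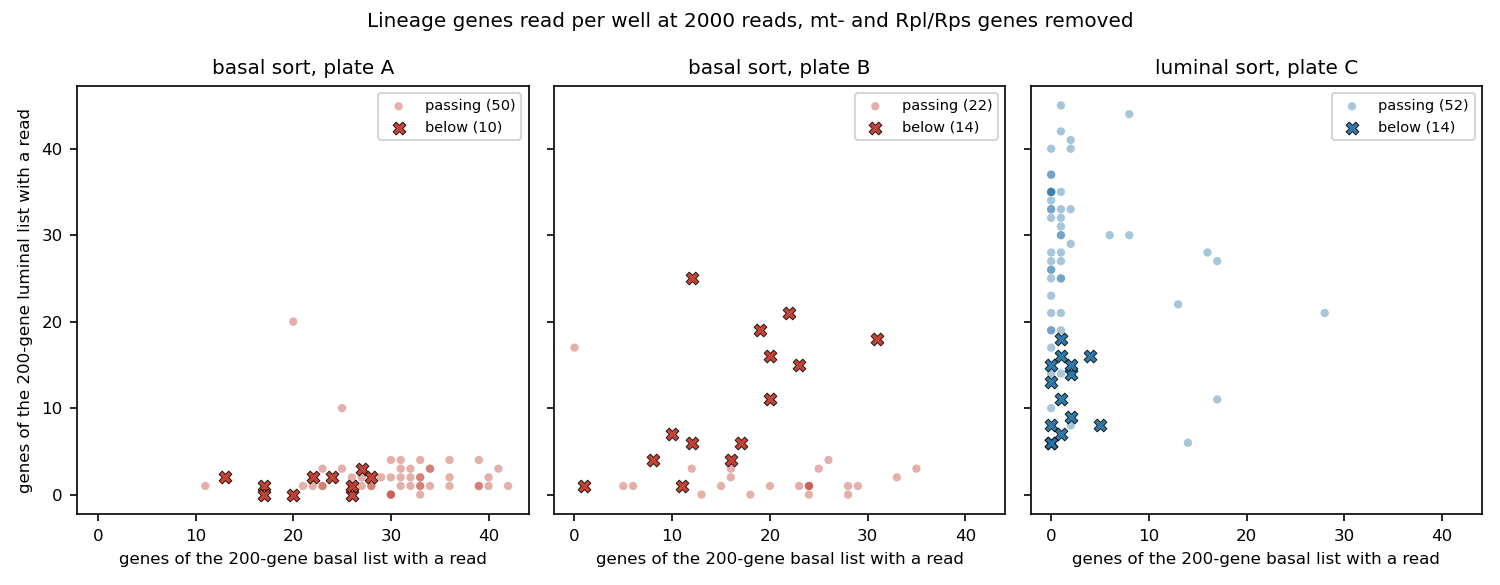
Number of genes with a read from the 200-gene basal list (x axis) and the 200-gene luminal list (y axis) per well at 2000 retained reads, with below wells as crosses and passing wells as circles, for the plates that hold both kinds. On plate B 7 basal wells below lie at 11 to 25 luminal-list genes, while basal wells below on plate A lie at 0 to 3.

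Few of the marker genes of other cell types were read in the below wells. Endothelial, pericyte and adipocyte ones were found in a larger share of basal wells below than of passing ones. Of 20 immune markers 1 had a read in basal and 0 in luminal wells below. Of 20 endothelial markers 5 had a read in basal wells below, at up to 0.60% of a well's reads, with Pecam1, Cdh5 and Kdr at 0, and 0 in luminal wells below. A read of this list was found in 12 of 24 basal wells below and 8 of 72 passing ones. Of the 4 genes compared 3 were 2-fold higher in below wells, with a median of 2.00. Among all genes 18.7% were, with a median of -0.97. Of the Egfl7 reads below 12 of 14 were in cell 38, and of the Mmrn2 reads 5 of 6 in cell 93. A pericyte marker was read in 11 of 24 and 10 of 72 basal wells, and an adipocyte marker in 10 of 24 and 14 of 72. The part of other cells in these reads was not tested. Of 20 fibroblast markers 5 and 4 had a read, with Col1a1 and Col1a2 at 0 in both. Of 20 pericyte markers 4 and 3 had a read, of 15 adipocyte markers 4 and 1, and of 8 erythroid markers 1 and 0. In passing basal wells the shares reached 1.05% for endothelial, 0.90% for immune and 4.15% for fibroblast markers.

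Many of the larger differences across all genes rested on single wells. By the naming rule (a difference of at least 2-fold on each plate and without any single well, and a read in at least 50% of wells of the higher kind) 9 genes were higher and 89 lower in basal wells below at 2000 retained reads. In luminal wells 55 were higher and 155 lower. Of the 570 genes 2-fold or more higher in basal wells below, 305 (53.5%) were no longer so once the 1 well with most effect on the gene was left out, and 201 of 434 (46.3%) in luminal wells.

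The higher genes named for basal wells below were spread over several sets. Gpx8, a peroxidase of the endoplasmic reticulum, was read in 13 of 24 wells below and 5 of 72 passing ones, at 1833 and 48.6 CPM (37.7-fold, counting interval 17.6 to 96.5). Bptf, a chromatin remodelling subunit, was read in 16 of 24 and 10 of 72, at 2021 and 97.2, with reads in 7 of 7 wells of the first and 6 of 7 of the third set. Ncor1, a nuclear receptor corepressor, was at 3125 and 299, with 112 of its 150 reads in cell 68, and its log2 ratio of 3.34 was 1.44 without that well. Suco had 82.8% of its reads in below wells in the first set, and Actn1, an actin crosslinker, 71.7% in the third. Srrm2, Pabpc1 and Sh2b3 completed the 8 named genes, with log2 ratios of 3.17, 2.63 and 2.53.

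The higher genes of luminal wells below were mostly those of the sixth set. Coq3, an enzyme of coenzyme Q synthesis, was at 11179 and 13.2 CPM, and 98.7% of its reads in below wells lay in that set. Cers5 was at 11500 and 39.5 with 97.5%, Maco1 at 16964 and 65.8 with 99.2%, and Camsap1, a microtubule minus-end protein, at 13607 and 65.8 with 99.5%. Sphk1, Stat2 and Smg1 had 97.8%, 97.8% and 97.9% of theirs there. Asrgl1, an asparaginase, had 96.3% of its reads in the seventh set instead, with a read in each of its 5 wells.

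Most of the named lower genes were read in few below wells. In basal wells Slc25a4, the mitochondrial ADP/ATP carrier, was read in 3 of 24 and 53 of 72, H2-K1, a class I histocompatibility gene, in 3 of 24 and 46 of 72, and the gap junction gene Gja1 in 5 of 24 and 47 of 72. In luminal wells Eef1b2, a translation elongation factor, had 0 reads in 14 wells below and was read in 62 of 76 passing ones, at least 10.8-fold lower. Cited1, a transcriptional coactivator, was at least 8.66-fold lower, and the lysosomal protease Ctsb at least 8.17-fold. Septin11, Klhl9, Dazap2, Cltc and Cct5 were also at 0 and at least 5.65-fold lower, where 3 reads over the 14 wells give the limit of 107 CPM.

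With all genes kept at 10000 reads, the naming rule left 2 higher genes in basal wells below, Ncor1 and AF357399, a snoRNA gene. AF357399 was read in 7 of 12 wells below and 2 of 72 passing ones, at 242 and 5.56 CPM. Lower genes included Apoe, with 0 reads in 12 wells against 63 of 72 with a read, and Acta2, at 83.3 and 4733. In luminal wells Elmod2, a GTPase-activating protein, led the higher genes, read in 5 of 9 and 6 of 76, and Rpl7 led the lower ones, with 0 reads below and 71 of 76 passing wells with a read. Mfge8, a milk fat globule protein, was at 0 as well, against 54 of 76. On this scale 178 genes were 2-fold higher in basal wells below, of which 132 (74.2%) were lost without 1 well.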

How the data were processed

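RNA was profiled in 186 single cells, 96 sorted as basal and 90 as luminal, on the Fluidigm C1, with Nextera XT libraries run on an Illumina HiSeq 2000. The authors aligned reads to mm10 with Subread and deposited raw counts per gene from featureCounts with its built-in RefSeq annotation. Whether counting used strand is not given in the sources used here, so overlapping genes and close relatives may share reads. RefSeq GRCm38.p6, the same assembly as mm10, gave a symbol for 25275 of the 27179 identifiers per file. The 1904 others (1.94% of counts) were left out. Total counts before this step were 3105 to 3784407 per well (median 1350612). After it the lowest total was 2633, in basal cell 49. The 1.94% is pooled over all wells, and the part left out was larger in that shallow well.

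The 15 mitochondrial and 125 Rpl and Rps genes (without the Rps6k kinases) were removed for the thresholds only. The members, gene lists, named-gene rule and tests were chosen with earlier results of these data known. The first comparison thinned wells without replacement to 10000 reads of all genes, which 12 of 24 basal and 9 of 14 luminal wells below could reach. Scales of 2500 reads of all genes, 2000 reads after gene removal and 250 mitochondrial reads, which all wells reach, the search for alike wells and values with 1 well per set were added after seeing the data. CPM are counts scaled to the total of a well or group on the stated scale. Log2 ratios used the summed counts with 10 CPM added, over genes with a mean of at least 50 CPM in the 2 kinds of well. Called means 2-fold or more.

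Named genes were the mitochondrial genes, 12 lineage, reference and nuclear genes, examples from the lists by size, and, in each sort and direction, the 8 largest ratios, of which some are not reported here. The last had to be read in at least 50% of wells of the higher kind and to hold 2-fold on each plate and without any 1 well. Sets joined wells whose pair r was above the highest of passing pairs. Doublets were not called, because capture sites were inspected by microscope. Each sort counted as 1 sample, so no test between kinds of well was run, and wells that stand apart were sought with Dixon's criterion. Counts have exact Poisson and shares exact Clopper-Pearson intervals at 95%, and a count of 0 is bounded by 3 reads over the group. The ratio step was tested on simulated data. Alternatives covered depth, gene removal, plates, scaling (TMM of edgeR 4.0.16 in R 4.3.3 and median-of-ratios factors), pseudocount, filter, seeds and left-out wells. Python 3.11.15 with numpy 2.4.6, pandas 2.3.3 and scipy 1.17.1 was used.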

Additional observations from a re-analysis of the deposited data

Results flagged for a closer look

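In the 10 basal wells below on plate A, 3 of the 11 measures tested had a well that stood apart from the others, by Dixon's criterion. Chance meets it in about 1 in 20 groups of independent values. These wells fall into sets of alike wells and some measures overlap, so the count cannot be set against that rate. These are values at 2000 retained reads. Respiratory chain messages took 0.6% of reads in cell 60, against 0.3% in the next well. The basal markers took 2% in cell 18, against 1.05% in the next. The study's basal list took 44.1% in cell 4, against 3.15% in the next, and Drp2 alone held 41.4% of that well.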

How the results depend on the processing

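Of the values computed under the alternatives listed first 262 stayed within counting or rank error of the reported ones (counts within 1.5 times), 59 moved further and 9 changed direction; of those under alternatives chosen after seeing the data the numbers were 52, 13 and 3. The cause of these shifts was not tested. Unless said otherwise, differences are below minus passing medians at 10000 reads, and list medians are log2 ratios relative to all genes.

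In basal wells the mitochondrial difference of 82.3 percentage points was 8.78 without thinning, 8.40 over wells that stayed below with all genes counted and 8.96 at 2500 reads. The difference in genes of -1425 was -1949 at 50000 reads, -3080 without thinning, -630 over wells that stayed below, -388 and -248 at 3000 and 2000 reads after gene removal, and -326 at 2500 reads. The own-lineage difference of -9.23 points was 4.76 on plate A alone. The difference in mean log2 transcript length of 0.14 was -0.05 at 50000 reads, 0.58 (plate A) and -0.13 (plate B). The 178 higher genes were 82 at 50000 reads, 88 without thinning, 96 on plate B, 543 and 570 at 3000 and 2000 reads after removal, 359 at 2500 reads, 103 with 1 well per set, 409 with TMM and 417 with median-of-ratios factors, 83 with a filter of 200 CPM, and 117 to 190 leaving out 1 well (lowest without cell 34). The 1877 lower genes were 648 and 604 with those factors, 6849 without a filter and 385 with 200 CPM. These factors moved the basal all-gene median from -3.0 to -0.71 and -0.59 and the luminal one from -2.71 to -1.27 and -0.64.

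The basal respiratory chain median of -0.66 was -1.02 for plate A, 0.16 for plate B, -0.92 at 3000 and at 2000 reads after removal, -1.22 and -1.27 with those factors, -0.92 with 1 CPM and -0.38 with 100 CPM added, -2.12 without a filter and -0.71 to -0.34 leaving out 1 well (highest without cell 34). The nuclear-retained median of 2.20 was -0.43 without a filter. The cytosolic median was -0.14 on plate B, -1.76 and -1.82 with those factors, -1.97 without a filter and -1.76 at 200 CPM. The basal marker median was -1.25 with 1 well per set and -1.90 without a filter.

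In luminal wells, with 1 well per set, the ribosomal protein difference of -1.32 became 1.18 and the own-lineage difference of -5.51 became 4.49. The difference in genes of -1709 was -2640 at 50000 reads, -4694 without thinning, -896 and -718 at 3000 and 2000 reads after removal and -810 at 2500 reads. The top 50 difference of 38.3 was 17.1 for the top 10 genes. The 406 higher genes were 250 at 50000 reads, 190 without thinning, 181 with 1 well per set, 641 with median-of-ratios factors and 248 at 200 CPM, and the 1633 lower ones 993 and 845 with TMM and median-of-ratios factors, 7422 without a filter and 270 at 200 CPM.

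The luminal respiratory chain median was -0.46 at 50000 reads, -0.55 without thinning, -1.89 at 2000 reads after removal, -0.09 with 1 well per set, -2.07 and -2.30 with those factors, -3.48 with 1 CPM and -0.35 with 100 CPM added, -2.18 without a filter, -3.87 at 200 CPM and -1.19 to -0.31 leaving out 1 well (highest without cell 57). The cytosolic median of -0.21 was 0.19 at 2000 reads after removal, -1.20 with median-of-ratios factors, -1.49 without a filter, -2.90 at 200 CPM, up to 0.04 with other seeds and -0.29 to 0.04 leaving out 1 well (highest without cell 72). The luminal marker median of -0.18 was -1.60 without a filter, -1.88 at 200 CPM, up to 0.12 with other seeds and -0.56 to 0.15 leaving out 1 well (highest without cell 72).

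No paired analysis was possible because no test between groups was made and cell numbers name wells only. Depth limits the 2000-read scale: a gene under about 1 read in 2000 is missed in most single wells.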

Other observations

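Long noncoding RNAs as a class took a larger part of retained reads in below wells, with medians at 2000 reads of 7.3% and 2.38% (below and passing) in basal wells of plate A, 3.4% and 1.7% on plate B, and 10% and 3.33% in luminal wells of plate C. Malat1 alone was at 60650, 24964 and 79321 CPM in these below wells. The summed level of Tug1 was lower in basal wells below (229 and 688 CPM), but its plate B medians were close (255 and 250). Pseudogenes took less, at 0.625% and 2.27%, 1.12% and 1.67%, and 0.6% and 1.95%. Reads of luminal wells below lay on longer genes, with a mean log2 length of 12.01 against 11.44 on plate C. In basal wells the values were 11.90 and 11.52 on plate A and 11.58 and 11.60 on plate B. With 1 well per set the luminal median was 11.50 over 4 wells. The cytoskeletal actin Actb, an abundant message often used as a reference, had median levels of 11080 and 25675 CPM after gene removal on plate A, 26880 and 44912 on plate B, and 23348 and 16842 on plate C.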
